A study of Mus musculus with 4 samples.

Results

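The genes described here encode the subunits of the 2 Polycomb repressive complexes and the 2 enzymes that remove their histone mark. They were chosen by name, 30 genes in all, and all 30 were among the 27998 genes of the deposited count table. They fall into 6 groups by role: 6 core subunits of PRC2, 4 accessory subunits of PRC2, 9 subunits of canonical PRC1, the 2 catalytic subunits shared by all PRC1 complexes, 7 subunits of variant PRC1, and 2 H3K27 demethylases.

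Polycomb repressive complex 2 (PRC2) methylates histone H3 at lysine 27, and this mark keeps developmental genes silent without removing them from later use. Canonical PRC1 carries a CBX subunit that binds the mark and a PHC subunit that compacts chromatin, while variant PRC1 carries RYBP or YAF2 in place of CBX and does most of the ubiquitylation of histone H2A. The demethylases encoded by Kdm6a and Kdm6b erase the H3K27 mark. Hox genes, the classic Polycomb targets, lose it in cluster order as cells of the caudal epiblast and their neuromesodermal progenitors (NMPs) take on trunk identity.

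Single-cell RNA was sequenced from 4 mouse cell populations on the 10x Chromium system, 1 library each, with 8700 cells loaded per library and E14Tg2a given as the strain of all 4. Epi-NMP cells were Epi-CE cells detached and grown for 2 more days in N2B27 medium with 20 ng/ml FGF2 and 3 µM of the GSK3 inhibitor CHIR99021. Epi-CE-T cells came from a Bra:GFP reporter line, were taken through the Epi-CE protocol and were sorted for GFP after 72 hours. Epi-CE cells are caudal epiblast-like cells made from epiblast stem cells (EpiSCs), which had been kept in 12 ng/ml FGF2 and 25 ng/ml activin A. Their FGF2 was raised to 20 ng/ml as activin A was withdrawn, and 3 µM CHIR99021 was added on day 3. ES-NMP cells were made from embryonic stem cells held in N2B27 for 2 days and then given 3 µM CHIR99021 for 24 hours, 72 hours in all. Reporter line and sort cannot be told apart in Epi-CE-T.

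The cell table marks each barcode TRUE or FALSE, with no stated meaning in the labels or files, and the TRUE barcodes were used unless stated. These numbered 1111 in Epi-NMP, 2109 in Epi-CE-T, 2386 in Epi-CE and 3116 in ES-NMP, with median depths of 19189 to 22613.5 UMIs (unique molecular identifiers, which count molecules). Summed depths ran from 22261452 UMIs in Epi-NMP to 71563029 in ES-NMP. Of all barcode sequences, 57 occurred in 2 or more libraries. E14Tg2a is known as an Hprt-deficient line. Hprt was at 0.943 CPM in Epi-NMP and 0.801 CPM in Epi-CE, but at 138 CPM in Epi-CE-T and 204 CPM in ES-NMP, so the last 2 libraries went against their strain label. Of the comparisons below, Epi-NMP over Epi-CE is the only one between libraries alike in Hprt, and in the other 3 the cell line and the condition cannot be told apart. The labels of fate were also checked against markers. T, the Brachyury gene, was at 382 CPM in the sorted Epi-CE-T library and 430.5 CPM in Epi-CE. Of 8 caudal genes measured in Epi-CE-T over Epi-CE, 6 were at least 1.5-fold lower and 1 higher. Among the lower ones, Cdx2 was at 4.67 CPM in Epi-CE-T and 122 CPM in Epi-CE, Nkx1-2 at 12.6 and 182 CPM, and Fgf8 at 4.69 and 95.8 CPM. The higher one was Sox2, at 49.0 CPM in Epi-CE-T and 31.4 CPM in Epi-CE. The 6 node and notochord genes summed to 234 CPM in Epi-CE-T and 79.8 CPM in Epi-CE. Of these, 3 were higher in Epi-CE-T (Shh, Chrd and Nog) and 1 was lower (Noto). In ES-NMP, 937 cells (30.1%) held at least 3 UMIs of 8 naive pluripotency genes after thinning to 8000 UMIs. The share was 0.630% of cells in Epi-NMP, 0.427% in Epi-CE-T and 3.23% in Epi-CE. Outside ES-NMP, Klf2 and Klf4 made up most of the sum of these genes. In Epi-CE they were at 29.8 and 28.6 CPM of a sum of 60.5 CPM. Klf4 was at 15.9 CPM in ES-NMP, while Zfp42 was at 0.0682 CPM in Epi-CE and 167 CPM in ES-NMP.

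Levels are summed UMIs scaled to the total UMIs of the same barcodes, in CPM. They are compared between libraries for a gene and not between genes, since they are not set per transcript length. A higher or lower level means a ratio of at least 1.5 between libraries with at least 50 UMIs in the pair. With 1 library per group there is no replicate check and no test. The 95% intervals cover counting error only, and a lower summed level does not separate fewer cells with the gene from fewer molecules per cell.

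Promoter windows are printed for the 4 canonical PRC1 genes that stood furthest apart between Epi-NMP and ES-NMP among those with a window, 2 lower (Cbx7, Phc1) and 2 higher (Cbx8, Bmi1), to show the CG content of their starts. Each runs 5′ to 3′ from 250 bases before to 50 bases after the RefSeq start (GRCm38.p6), with every CG dinucleotide in capitals. The Cbx7 window is chr15:79932597-79932896 (minus strand), the Phc1 window chr6:122340178-122340477 (minus strand), the Bmi1 window chr2:18676768-18677067 (plus strand) and the Cbx8 window chr11:119040864-119041163 (minus strand).
Cbx7: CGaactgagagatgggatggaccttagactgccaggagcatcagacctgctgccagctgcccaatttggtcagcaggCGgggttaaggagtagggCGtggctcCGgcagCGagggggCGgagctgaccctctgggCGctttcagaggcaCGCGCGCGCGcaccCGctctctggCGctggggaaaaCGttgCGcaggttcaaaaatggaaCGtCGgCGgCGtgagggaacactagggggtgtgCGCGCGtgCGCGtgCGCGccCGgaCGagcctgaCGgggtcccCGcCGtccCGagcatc
Phc1: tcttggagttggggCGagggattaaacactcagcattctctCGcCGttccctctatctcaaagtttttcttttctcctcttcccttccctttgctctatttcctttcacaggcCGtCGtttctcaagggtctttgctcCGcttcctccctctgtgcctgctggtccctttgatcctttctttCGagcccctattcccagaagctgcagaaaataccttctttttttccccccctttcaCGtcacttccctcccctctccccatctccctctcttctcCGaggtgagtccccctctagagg
Bmi1: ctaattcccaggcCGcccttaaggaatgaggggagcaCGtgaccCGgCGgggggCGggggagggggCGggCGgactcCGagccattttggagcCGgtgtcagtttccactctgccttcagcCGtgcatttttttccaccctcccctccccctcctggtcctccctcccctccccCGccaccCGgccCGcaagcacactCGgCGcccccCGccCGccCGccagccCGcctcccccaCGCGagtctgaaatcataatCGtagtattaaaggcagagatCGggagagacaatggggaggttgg
Cbx8: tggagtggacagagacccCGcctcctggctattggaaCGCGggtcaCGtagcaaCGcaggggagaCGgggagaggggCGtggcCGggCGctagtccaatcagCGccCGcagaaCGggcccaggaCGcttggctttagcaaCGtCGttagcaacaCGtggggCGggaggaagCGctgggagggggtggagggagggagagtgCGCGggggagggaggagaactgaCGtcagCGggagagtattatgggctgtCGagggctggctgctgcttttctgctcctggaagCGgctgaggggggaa
The Cbx7 window holds 33 CG dinucleotides, the Cbx8 window 24, the Bmi1 window 23 and the Phc1 window 9. Over the 34 windows of the 25 members in the RefSeq table the median was 24 (2 to 49), against 7 over all 32851 windows of 300 bases. Both strands were searched for the octamer ATGCAAAT, known as a POU factor motif, and for CTTTGAA and CTTTGAT, known as TCF motifs. ATGCAAAT stood in 1 member window (Phc2) and 1.74% of all windows, CTTTGAA in 1 (Suz12) and 5.14%, and CTTTGAT in 1 (Phc1) and 3.73%. These matches describe letters and no binding. The members without a window were Cbx2, Pcgf1, Rybp, Yaf2 and Kdm6b.

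The members did not move as a block in any of the 4 comparisons of libraries; Epi-CE-T was compared with Epi-CE alone. In Epi-NMP over Epi-CE, the last 2 days of culture, 7 of 30 members were higher and 7 lower, against 14.9% of all 12628 genes tested higher and 22.7% lower. In Epi-NMP over ES-NMP, the 2 populations labelled NMPs, 6 were higher and 5 lower (16.0% and 18.4% of 12949 genes). In Epi-CE over ES-NMP 4 were higher and 6 lower (21.1% and 16.2% of 13553 genes), and in Epi-CE-T over Epi-CE 4 were higher and 4 lower (18.1% and 13.1% of 13119 genes). The median log2 ratio of the 30 members was 0.17 in Epi-NMP over Epi-CE, 0.19 in Epi-NMP over ES-NMP, -0.02 in Epi-CE over ES-NMP and 0.02 in Epi-CE-T over Epi-CE. Over all genes tested it was -0.01, 0.03, 0.03 and 0.04 in the same order. The shares of members called thus lay near those of all genes. Epi-CE is the denominator or numerator of 3 of these comparisons and ES-NMP of 2, so their values are not independent. Of the 14 members called in Epi-NMP over Epi-CE, 7 belong to canonical PRC1, with 5 higher and 2 lower. It had the most calls in that comparison and is also the largest group, with 9 members.

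**Figure D1:**
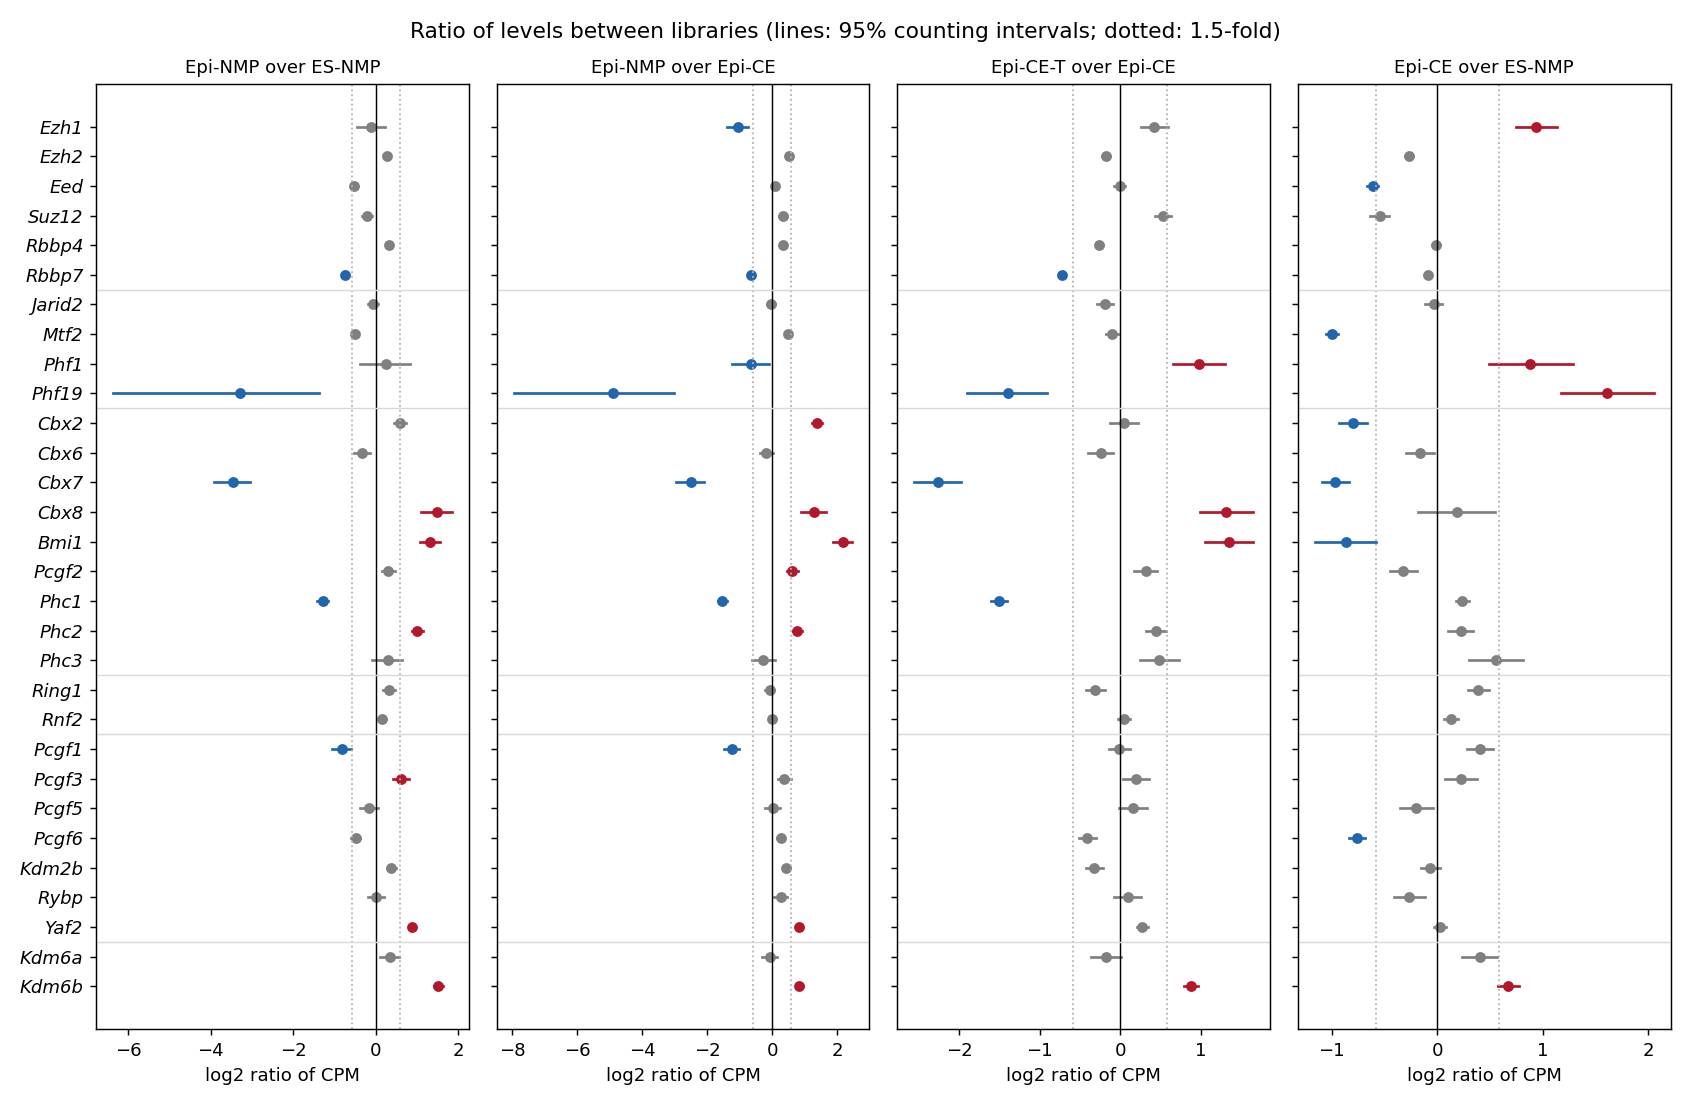
Log2 ratio of CPM for the 30 members in 4 comparisons of libraries (x axis), ordered by role on the y axis and separated by grey lines. Points are ratios, horizontal lines 95% counting intervals, dotted lines 1.5-fold, red at least 1.5-fold higher and blue at least 1.5-fold lower in the library named first; x scales differ between panels. Cbx7 lies left of the lower dotted line in all 4 panels and Phc1 in 3, and Kdm6b lies right of the upper one in all 4.

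Within the PRC2 core the methyltransferase Ezh2 and its partners were present at all stages, and the other methyltransferase, Ezh1, varied most. Ezh2 was at 209.6 CPM in Epi-NMP (204 to 216), 128 in Epi-CE-T (124 to 131), 145 in Epi-CE (142 to 148) and 174 in ES-NMP (171 to 178). Over all TRUE barcodes it was highest in Epi-NMP and lowest in Epi-CE-T. In barcodes of 20000 to 30000 UMIs it was at 222 CPM in Epi-NMP, 149 in both Epi-CE-T and Epi-CE, and 174 in ES-NMP. None of the 4 comparisons reached 1.5-fold, the largest of them at 1.45 in Epi-NMP over Epi-CE (1.40 to 1.502). Ezh1, which forms a PRC2 of weaker methyltransferase activity, was at 4.54 CPM in Epi-NMP (3.70 to 5.51), 12.6 in Epi-CE-T (11.6 to 13.7), 9.41 in Epi-CE (8.64 to 10.2) and 4.90 in ES-NMP (4.41 to 5.45). It was thus 2.07-fold lower in Epi-NMP than in Epi-CE (1.67 to 2.59) and 1.92-fold higher in Epi-CE than in ES-NMP (1.68 to 2.20). Epi-NMP and ES-NMP did not differ in Ezh1 beyond counting error.

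Eed, whose protein reads the mark and stimulates the enzyme, was at 78.5 CPM in Epi-NMP, 73.7 in Epi-CE-T, 74.0 in Epi-CE and 113 in ES-NMP. ES-NMP stood above the 3 EpiSC-derived libraries, and Eed was 1.53-fold lower in Epi-CE than in ES-NMP (1.47 to 1.59), or 1.295-fold lower once the naive marker cells of ES-NMP were left out. Suz12, the scaffold of PRC2, was at 34.2 CPM in Epi-NMP, 39.1 in Epi-CE-T, 27.2 in Epi-CE and 39.7 in ES-NMP and reached 1.5-fold in none of the 4 comparisons. The histone-binding subunits diverged. Rbbp7 was at 297 CPM in Epi-NMP (290 to 304), 285 in Epi-CE-T (280.3 to 290.2), 469 in Epi-CE (463 to 474) and 499 in ES-NMP (493 to 504). The levels formed a low pair, Epi-NMP and Epi-CE-T, and a high pair, with Rbbp7 1.58-fold lower in Epi-NMP than in Epi-CE (1.54 to 1.62), 1.64-fold lower in Epi-CE-T than in Epi-CE (1.61 to 1.68) and 1.68-fold lower in Epi-NMP than in ES-NMP (1.63 to 1.72). Its paralogue Rbbp4 was at 244 CPM in Epi-NMP, 162 in Epi-CE-T, 194 in Epi-CE and 195.5 in ES-NMP, with no ratio of 1.5-fold in the 4 comparisons. Both proteins also serve in other chromatin complexes.

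Of the 4 accessory subunits, Jarid2, which helps recruit PRC2 in embryonic stem cells, stayed between 33.1 and 38.7 CPM in the 4 libraries. Mtf2, a DNA-binding recruiter of PRC2 at CpG islands, was at 88.5 CPM in Epi-NMP, 58.3 in Epi-CE-T, 62.5 in Epi-CE and 125 in ES-NMP. Mtf2 was 2.00-fold lower in Epi-CE than in ES-NMP (1.93 to 2.08). Without the naive marker cells of ES-NMP the same ratio was 1.32-fold lower for Mtf2 and 1.74-fold higher for Jarid2, against 0.977 for Jarid2 with them. The other Polycomb-like genes were low. Phf19 was at 0.0898 CPM in Epi-NMP on 2 UMIs (0.0109 to 0.325), 1.02 in Epi-CE-T, 2.68 in Epi-CE and 0.880 in ES-NMP. The ratio of Phf19 in Epi-NMP over Epi-CE was 0.0336 (0.00403 to 0.123), and it was 0.102 in Epi-NMP over ES-NMP (0.0121 to 0.384). Phf19 was 3.04-fold higher in Epi-CE than in ES-NMP (2.26 to 4.14) and 2.62-fold lower in Epi-CE-T than in Epi-CE. Phf1 was at 1.48 CPM in Epi-NMP, 4.56 in Epi-CE-T, 2.32 in Epi-CE and 1.26 in ES-NMP. It was 1.97-fold higher in Epi-CE-T than in Epi-CE (1.57 to 2.46) and 1.84-fold higher in Epi-CE than in ES-NMP (1.40 to 2.43), while it was 1.56-fold lower in Epi-NMP than in Epi-CE (1.06 to 2.36), a difference under 1.5-fold in 3 of the alternatives. Phf1 overlaps Cuta, a gene at 84.7 to 108 CPM, by 4090 bases on the opposite strand. No strand setting was stated, and a part of Cuta reads in the Phf1 count was not tested.

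**Figure D2:**
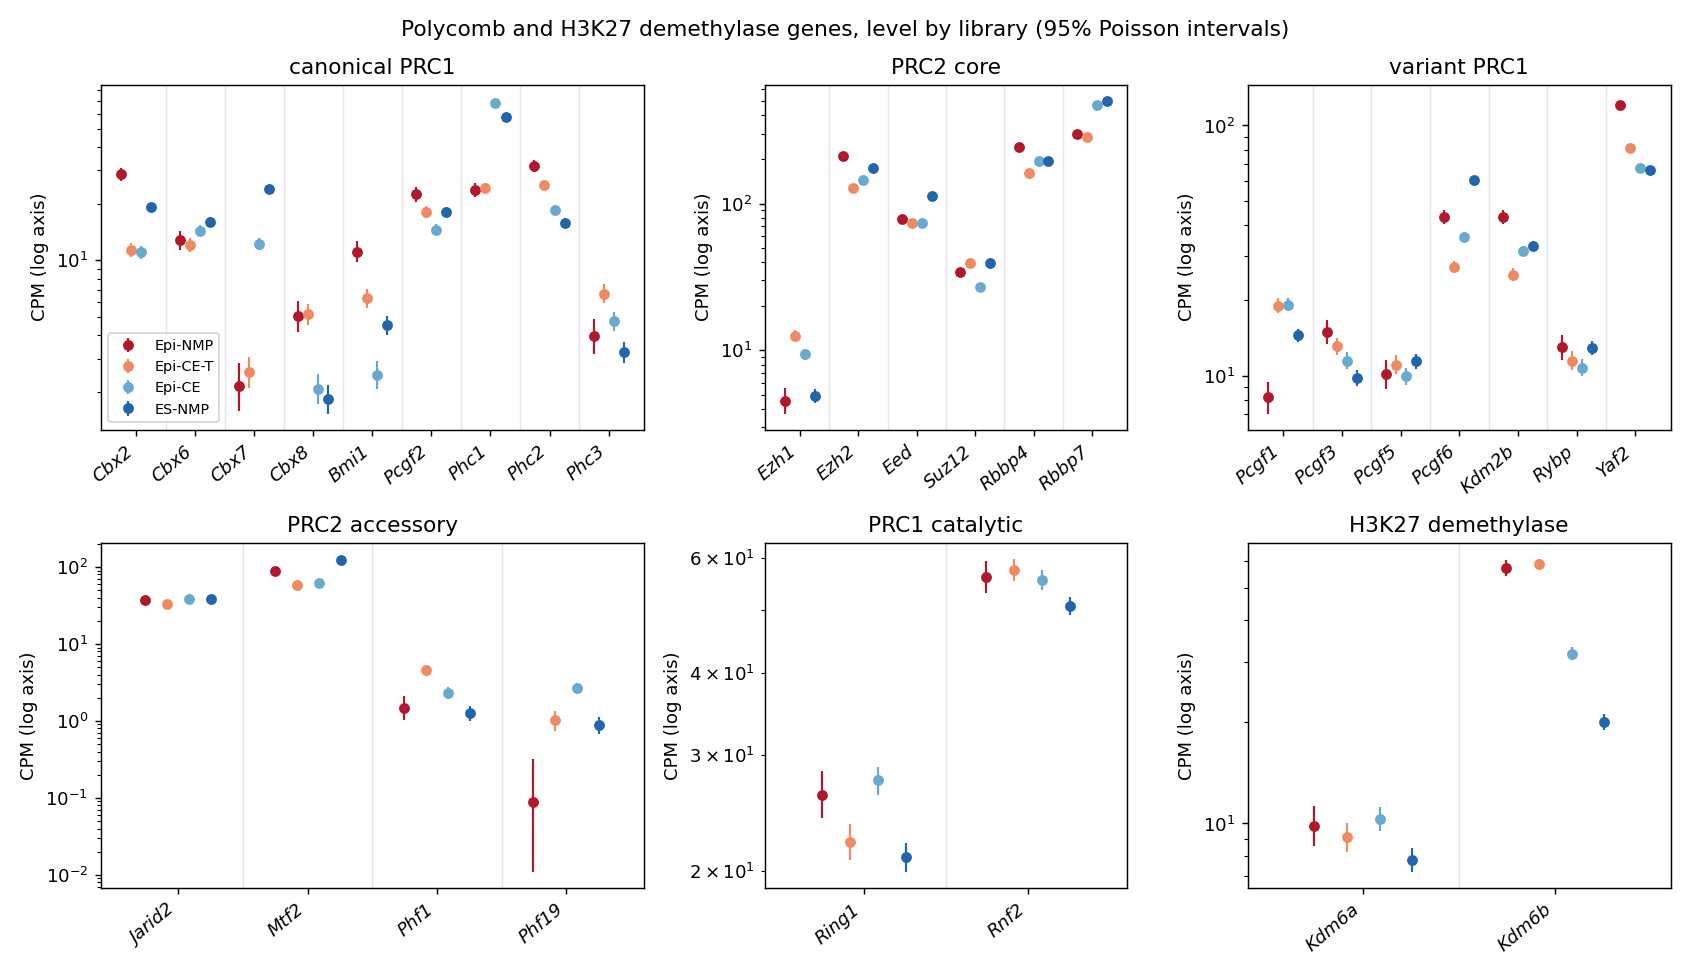
CPM (log axis) of each member in each library, in 6 panels by role. Points are summed levels over TRUE barcodes of Epi-NMP, Epi-CE-T, Epi-CE and ES-NMP, left to right within a gene, and vertical lines are exact 95% Poisson intervals. The CBX genes move in opposite directions: Cbx7 is lowest in Epi-NMP and Epi-CE-T (2.16 and 2.56 CPM), where Cbx8 is highest (5.08 and 5.18 CPM).

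The CBX subunits of canonical PRC1, the readers of the mark, moved in opposite directions. Cbx7, the main CBX protein of pluripotent cells, was at 2.16 CPM in Epi-NMP (1.59 to 2.86), 2.56 in Epi-CE-T (2.11 to 3.07), 12.2 in Epi-CE (11.4 to 13.2) and 23.9 in ES-NMP (22.8 to 25.1). It was lowest in Epi-NMP and Epi-CE-T, whose intervals overlap. Cbx7 was 11.1-fold lower in Epi-NMP than in ES-NMP (8.33 to 15.1), 5.68-fold lower in Epi-NMP than in Epi-CE (4.24 to 7.77), 4.79-fold lower in Epi-CE-T than in Epi-CE (3.93 to 5.88) and 1.95-fold lower in Epi-CE than in ES-NMP (1.79 to 2.13). Without the naive marker cells of ES-NMP it was 5.51-fold lower in Epi-NMP, and its ratio in Epi-CE over ES-NMP was 1.03. The 3′ end of Cbx7 overlaps Apobec3 on the opposite strand by 100 bases. Apobec3 was at 3.59 CPM in Epi-NMP, 17.03 in Epi-CE-T, 9.85 in Epi-CE and 23.8 in ES-NMP, lower with Cbx7 in Epi-NMP over both of its comparators and in Epi-CE over ES-NMP, and higher where Cbx7 was lower in Epi-CE-T over Epi-CE. No strand setting was stated, and a part of Apobec3 reads in the Cbx7 count was not tested.

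Cbx8, a CBX gene of differentiating cells, was at 5.08 CPM in Epi-NMP (4.18 to 6.10), 5.18 in Epi-CE-T (4.54 to 5.89), 2.08 in Epi-CE (1.73 to 2.48) and 1.83 in ES-NMP (1.53 to 2.17). The same 2 libraries stood apart as for Cbx7, here as the high pair. Cbx8 was 2.77-fold higher in Epi-NMP than in ES-NMP (2.14 to 3.59), 2.44-fold higher in Epi-NMP than in Epi-CE (1.87 to 3.18) and 2.49-fold higher in Epi-CE-T than in Epi-CE (1.99 to 3.13). Cbx2, whose protein compacts chromatin and whose loss shifts the axial skeleton of mice, was at 28.7 CPM in Epi-NMP (26.5 to 31.0), 11.4 in Epi-CE-T (10.4 to 12.4), 11.01 in Epi-CE (10.2 to 11.9) and 19.1 in ES-NMP (18.1 to 20.2). Unlike Cbx8 it was not higher in Epi-CE-T, with a ratio of 1.03 to Epi-CE (0.918 to 1.16), while it was 2.61-fold higher in Epi-NMP than in Epi-CE (2.33 to 2.91) and 1.74-fold lower in Epi-CE than in ES-NMP (1.58 to 1.91), the second being 1.47-fold in cells of 20000 to 30000 UMIs. In Epi-NMP over ES-NMP it lay just under the threshold, at 1.499 (1.36 to 1.65). Cbx2 and Cbx8 are neighbours on chromosome 11, with 5034 bases between them. Cbx6 stayed between 12.1 and 16.1 CPM.

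The Polycomb ring-finger genes Bmi1 and Pcgf2, alternative partners of the catalytic subunit in canonical PRC1, were highest in Epi-NMP. Bmi1 was at 11.1 CPM in Epi-NMP (9.80 to 12.6), 6.29 in Epi-CE-T (5.58 to 7.07), 2.47 in Epi-CE (2.09 to 2.91) and 4.51 in ES-NMP (4.03 to 5.03). No intervals overlapped. It was 4.51-fold higher in Epi-NMP than in Epi-CE (3.66 to 5.57), 2.47-fold higher in Epi-NMP than in ES-NMP (2.08 to 2.92) and 2.54-fold higher in Epi-CE-T than in Epi-CE (2.08 to 3.13), while it was 1.83-fold lower in Epi-CE than in ES-NMP (1.497 to 2.24). Pcgf2 was at 22.4 CPM in Epi-NMP, 18.1 in Epi-CE-T, 14.5 in Epi-CE and 18.2 in ES-NMP and was 1.54-fold higher in Epi-NMP than in Epi-CE (1.38 to 1.73), or 1.46-fold with all barcodes or with cells thinned to 8000 UMIs.

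The polyhomeotic genes, which encode the polymerising subunits, also moved in opposite directions. Phc1 was at 23.7 CPM in Epi-NMP (21.7 to 25.8), 24.1 in Epi-CE-T (22.7 to 25.6), 68.4 in Epi-CE (66.3 to 70.5) and 58.0 in ES-NMP (56.2 to 59.8). Epi-NMP and Epi-CE-T were again the low pair, with Phc1 2.89-fold lower in Epi-NMP than in Epi-CE (2.64 to 3.17), 2.83-fold lower in Epi-CE-T than in Epi-CE (2.65 to 3.03) and 2.45-fold lower in Epi-NMP than in ES-NMP (2.24 to 2.69). Phc2 was at 31.7 CPM in Epi-NMP (29.4 to 34.1), 25.0 in Epi-CE-T (23.6 to 26.5), 18.4 in Epi-CE (17.4 to 19.6) and 15.8 in ES-NMP (14.9 to 16.8). It was 2.00-fold higher in Epi-NMP than in ES-NMP (1.82 to 2.20) and 1.72-fold higher in Epi-NMP than in Epi-CE (1.56 to 1.89), the second being 1.44-fold with all barcodes. Phc3 lay between 3.24 CPM in ES-NMP and 6.65 CPM in Epi-CE-T, with no ratio of 1.5-fold in the 4 comparisons, although 3 alternatives gave 1.52-fold to 1.67-fold in Epi-CE-T over Epi-CE.

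Neither gene of the catalytic subunits was called in the 4 comparisons. Rnf2, which encodes the main H2A ubiquitin ligase RING1B, was at 56.1 CPM in Epi-NMP, 57.5 in Epi-CE-T, 55.5 in Epi-CE and 50.7 in ES-NMP. Ring1, its paralogue, was at 26.1 CPM in Epi-NMP, 22.2 in Epi-CE-T, 27.5 in Epi-CE and 21.0 in ES-NMP. Of the 4 comparisons, the ratio farthest from 1 was 1.31 for Ring1 in Epi-CE over ES-NMP (1.22 to 1.41) and 1.11 for Rnf2 in Epi-NMP over ES-NMP (1.04 to 1.18).

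In variant PRC1, Yaf2, one of the adaptor genes that replace CBX, was at 121 CPM in Epi-NMP (117 to 126), 81.6 in Epi-CE-T (79.0 to 84.3), 67.5 in Epi-CE (65.4 to 69.6) and 66.3 in ES-NMP (64.4 to 68.2). It was 1.79-fold higher in Epi-NMP than in Epi-CE (1.71 to 1.88) and 1.83-fold higher in Epi-NMP than in ES-NMP (1.74 to 1.92), the second being 1.47-fold without the naive marker cells of ES-NMP. The other adaptor, Rybp, stayed between 10.8 and 12.98 CPM, and its counts are uncertain because the annotation lists a pseudogene copy, Rybp-ps. Pcgf1, the ring-finger gene of the complex that KDM2B brings to CpG islands, was at 8.18 CPM in Epi-NMP (7.03 to 9.45), 19.05 in Epi-CE-T (17.8 to 20.4), 19.2 in Epi-CE (18.1 to 20.3) and 14.5 in ES-NMP (13.6 to 15.4). Only Epi-NMP was low, 2.35-fold below Epi-CE (2.01 to 2.76) and 1.77-fold below ES-NMP (1.51 to 2.09). Kdm2b itself was at 43.0 CPM in Epi-NMP, 25.3 in Epi-CE-T, 31.6 in Epi-CE and 33.1 in ES-NMP, with no ratio of 1.5-fold in the 4 comparisons.

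Pcgf6, the ring-finger gene of a variant complex found in embryonic stem cells, was at 43.2 CPM in Epi-NMP, 27.1 in Epi-CE-T, 35.9 in Epi-CE and 60.7 in ES-NMP and was 1.69-fold lower in Epi-CE than in ES-NMP (1.60 to 1.78). Pcgf3 was at 15.0 CPM in Epi-NMP, 13.1 in Epi-CE-T, 11.5 in Epi-CE and 9.81 in ES-NMP, 1.52-fold higher in Epi-NMP than in ES-NMP (1.33 to 1.74). That ratio sat at the threshold and was 1.48 under either of the other scalings tried. Pcgf5 stayed between 9.92 and 11.4 CPM.

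The 2 demethylases differed. Kdm6a, the X-linked enzyme gene, stayed between 7.81 and 10.3 CPM. Kdm6b, whose enzyme is linked in mice and cultured cells to the release of Hox genes from Polycomb, was at 57.3 CPM in Epi-NMP (54.2 to 60.5), 58.5 in Epi-CE-T (56.3 to 60.8), 31.9 in Epi-CE (30.4 to 33.4) and 20.0 in ES-NMP (18.96 to 21.0). Epi-NMP and Epi-CE-T overlapped and stood above the others. Kdm6b was 2.87-fold higher in Epi-NMP than in ES-NMP (2.66 to 3.09), 1.80-fold higher in Epi-NMP than in Epi-CE (1.67 to 1.93), 1.84-fold higher in Epi-CE-T than in Epi-CE (1.73 to 1.95) and 1.60-fold higher in Epi-CE than in ES-NMP (1.49 to 1.71). Without the naive marker cells of ES-NMP the last of these was 1.29. Kdm6bos, an antisense gene within Kdm6b, had at most 42 UMIs in a library.

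Kdm6b also moved with barcode depth. In Epi-NMP, 1513 barcodes (57.7%) were marked FALSE, against 4.18% in Epi-CE-T, 3.24% in Epi-CE and 5.23% in ES-NMP. The FALSE barcodes of Epi-NMP had a median of 4720 UMIs and the TRUE ones 19252. Kdm6b was at 323 CPM in the FALSE barcodes (310.1 to 335.7) and 57.3 CPM in the TRUE barcodes, 5.63-fold higher (5.26 to 6.03). The count per barcode was also larger, with a mean of 1.64 Kdm6b UMIs in FALSE barcodes and 1.15 in TRUE barcodes. Of 5285 genes with at least 200 UMIs over both sets and 20 CPM in either, 13 had a higher FALSE over TRUE ratio than Kdm6b, and 31 (0.587%) reached 4-fold. Mitochondrial genes took 4.53% of UMIs in the FALSE barcodes and 2.61% in the TRUE barcodes, and the part of this in the Kdm6b level was not tested. Over the 29 measured members, 2 were higher in FALSE barcodes (Kdm6b and Phf1) and 8 lower, against 2.80% and 17.9% of 10661 genes. The 8 were Suz12, Jarid2, Cbx2, Phc1, Phc2, Phc3, Pcgf3 and Rybp, with Phc2 lowest at 10.7 CPM in FALSE barcodes and 31.7 in TRUE barcodes, 2.97-fold lower (2.36 to 3.77). Cbx7 was at 2.61 CPM in FALSE barcodes and 2.16 in TRUE barcodes, and Phf19 had 0 UMIs there, which allows up to 0.391 CPM at a floor of 3 UMIs.

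By depth, Kdm6b in Epi-NMP lay between 318 and 336 CPM in the 4 bins from 3000 to 8000 UMIs, all FALSE. It was at 214 CPM from 8000 to 10000 UMIs, where 93 of 118 barcodes were TRUE, 89.4 from 10000 to 15000, 55.8 from 15000 to 20000, 39.0 from 20000 to 30000 and 48.0 above. The all-FALSE bins were alike within their intervals, and from 8000 to 30000 UMIs the level was lower in each deeper bin. In the other libraries it ran from 93.2 CPM at 6000 to 8000 UMIs down to 50.4 above 30000 in Epi-CE-T, 79.0 down to 31.5 in Epi-CE and 97.7 down to 17.7 in ES-NMP over the same bins, with 73.7 CPM (43.7 to 117) in the ES-NMP bin of 5000 to 6000 UMIs. Kdm6b was 2.29-fold higher at 10000 to 15000 UMIs than at 20000 to 30000 UMIs in Epi-NMP (1.95 to 2.695), while the same ratio for Kdm6a was 0.910 (0.554 to 1.44). Depth dependence was not particular to Kdm6b. In Epi-CE-T the same ratio was 1.45 for Kdm6b, 1.39 for Kdm6a (1.03 to 1.88), 2.56 for Phf1 and 0.496 for Ezh2 (0.449 to 0.547). For Bmi1 it was 2.47 in Epi-CE and 2.06 in ES-NMP, but 0.869 in Epi-NMP and 1.03 in Epi-CE-T. At 20000 to 30000 UMIs, Kdm6b was at 39.0 CPM in Epi-NMP, 51.7 in Epi-CE-T, 30.4 in Epi-CE and 19.8 in ES-NMP, and Epi-NMP was 1.27-fold above Epi-CE, short of 1.5-fold. A contribution of free RNA or damaged cells was not tested.

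**Figure D3:**
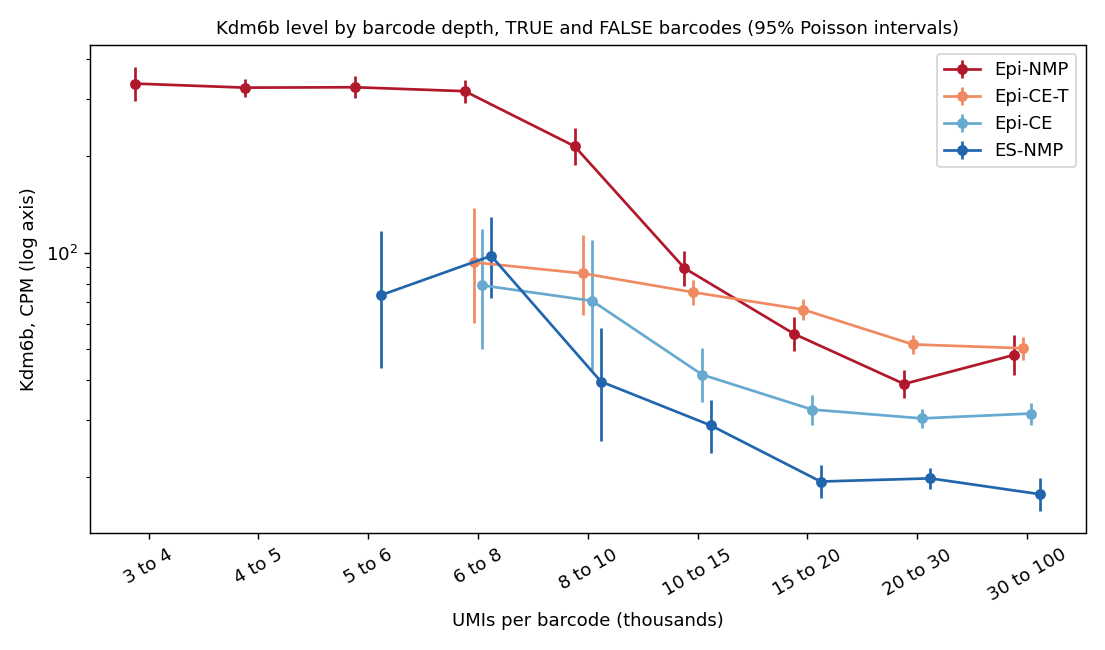
Kdm6b CPM (log axis) by UMIs per barcode, over TRUE and FALSE barcodes of Epi-NMP, Epi-CE-T, Epi-CE and ES-NMP, in bins of at least 20 barcodes; vertical lines are exact 95% Poisson intervals. Epi-NMP lies between 318 and 336 CPM below 8000 UMIs and at 39.0 CPM from 20000 to 30000 UMIs, and the other libraries slope down less steeply.

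The summed Hox genes of groups 1 to 4, 5 to 9 and 10 to 13 were each highest in Epi-NMP, and the first 2 sums were lowest in Epi-CE-T. Single genes could differ, as Hoxb1 did at 13.7 CPM in Epi-NMP and 52.1 in ES-NMP. Summed Hox genes of paralogue groups 5 to 9 were at 613 CPM in Epi-NMP (603 to 624), 8.25 in Epi-CE-T (7.43 to 9.13), 10.7 in Epi-CE (9.83 to 11.5) and 214 in ES-NMP (210.2 to 217). Groups 1 to 4 summed to 288 CPM in Epi-NMP, 23.5 in Epi-CE-T, 82.3 in Epi-CE and 175 in ES-NMP, and groups 10 to 13 to 40.8, 1.62, 0.477 and 3.63 CPM in the same order. Hoxb9, a gene of the posterior trunk, was at 151 CPM in Epi-NMP, 1.07 in Epi-CE-T, 0.545 in Epi-CE and 52.1 in ES-NMP.

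Set beside this order, the members separated into those that paired Epi-NMP with Epi-CE-T and those that did not. Low Cbx7, Phc1 and Rbbp7 and high Cbx8 and Kdm6b were shared by Epi-NMP, where Hox genes of groups 5 to 9 were highest, and Epi-CE-T, where they were lowest. Their levels were not in the Hox order over the 4 libraries. For Kdm6b this rests on all TRUE barcodes: from 20000 to 30000 UMIs it was at 39.0 CPM in Epi-NMP (35.2 to 43.1), below the 51.7 CPM of Epi-CE-T (48.3 to 55.3). Bmi1, Phc2 and Yaf2 were also higher in Epi-NMP and Epi-CE-T than in Epi-CE and ES-NMP, but with Epi-NMP above Epi-CE-T. Cbx2 was ordered as the Hox sums of groups 5 to 9 were in its upper ranks. It was higher in Epi-NMP than in ES-NMP, and higher in both than in Epi-CE-T and Epi-CE, whose intervals overlap. Ezh2, Rbbp4 and Kdm2b stood in the full order of these sums, with no ratio of 1.5-fold in the 4 comparisons. Those comparisons leave out Epi-NMP against Epi-CE-T, the highest and lowest libraries in that order. There Ezh2 was at 209.6 and 128 CPM, Rbbp4 at 244 and 162 CPM, and Kdm2b at 43.0 and 25.3 CPM. From 20000 to 30000 UMIs, Ezh2 was at 149 CPM in both Epi-CE-T and Epi-CE, and Rbbp4 and Kdm2b were not lower in Epi-CE than in ES-NMP. Epi-CE-T and Epi-CE had Hox sums of groups 5 to 9 within a few CPM of each other, but Cbx7 was 4.79-fold lower and Kdm6b 1.84-fold higher in Epi-CE-T. Other gene groups moved too. Core and primed pluripotency genes summed to 17.6 CPM in Epi-NMP, 112 in Epi-CE-T, 553 in Epi-CE and 673 in ES-NMP. Cbx7 stood in the order of these sums, most of which was Pou5f1 in Epi-CE (426 CPM) and ES-NMP (458 CPM). Of the 6 genes, 2 were higher and 2 lower in Epi-CE over ES-NMP. Pou3f1 was at 36.2 CPM in Epi-CE and 8.86 in ES-NMP, and Nanog at 14.5 and 58.2 CPM. Immediate early genes summed to 952 CPM in Epi-NMP, 1213 in Epi-CE-T, 1159 in Epi-CE and 523 in ES-NMP. S phase genes summed to 2264, 1568, 2024 and 2740 CPM. The nuclear-retained RNAs listed as a possible sign of RNA quality were Malat1, Neat1, Kcnq1ot1, Meg3, Mirg and Xist. Malat1 was at 6041 CPM in Epi-NMP, 11420 in Epi-CE-T, 8100 in Epi-CE and 3462 in ES-NMP. The median log2 ratio of the 6 RNAs was -0.03 in Epi-NMP over ES-NMP and 1.33 in Epi-CE over ES-NMP, and that of the 5 measured was -0.55 in Epi-NMP over Epi-CE and -0.59 in Epi-CE-T over Epi-CE. Malat1 went against that median in Epi-CE-T over Epi-CE, while Meg3 was at 406 CPM in Epi-CE-T and 820 in Epi-CE, so the list gave no single reading of RNA quality. The part of these in the levels of the members was not tested.

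**Figure D4:**
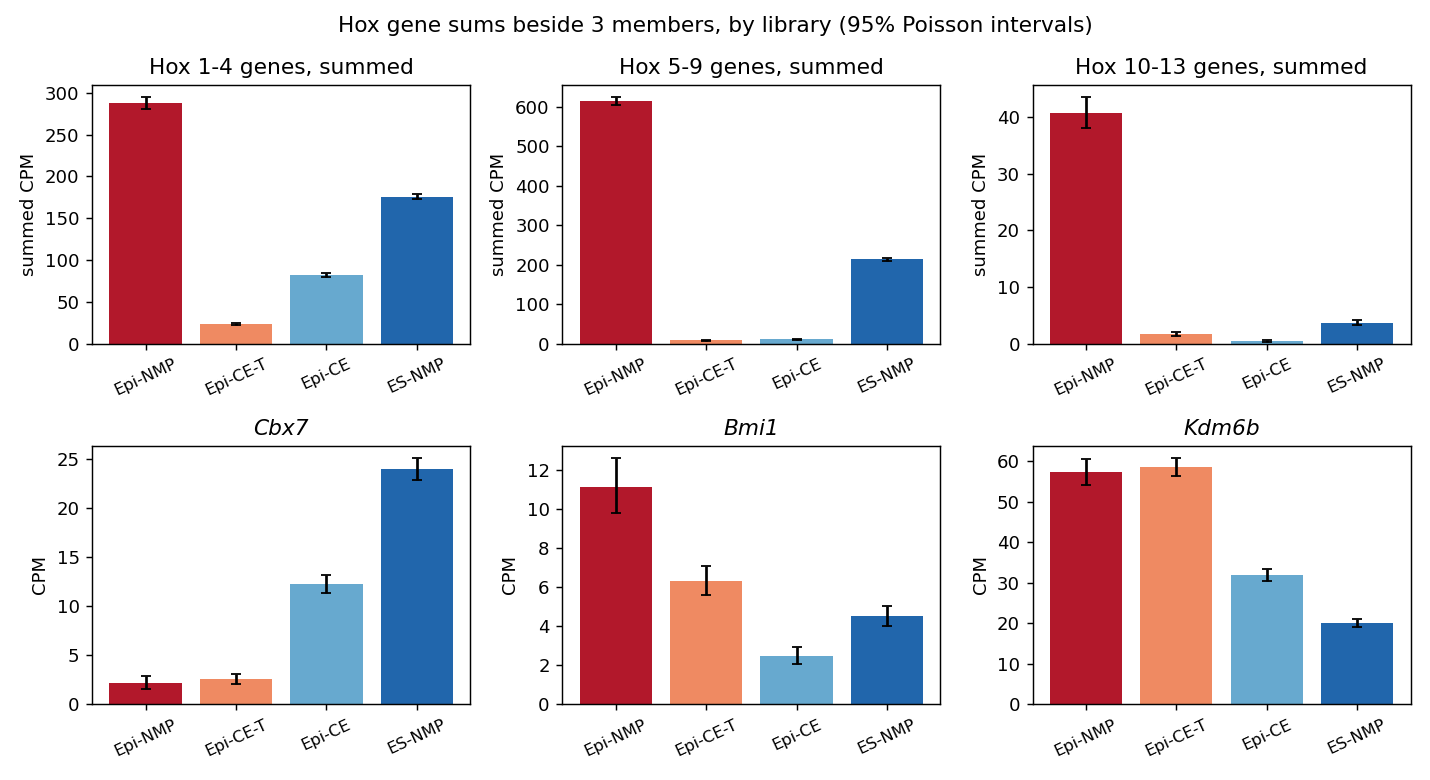
Summed CPM of Hox genes by paralogue group (upper row) and CPM of Cbx7, Bmi1 and Kdm6b (lower row) in Epi-NMP, Epi-CE-T, Epi-CE and ES-NMP; error bars are exact 95% Poisson intervals. Hox sums are low in Epi-CE-T and high in Epi-NMP, while Cbx7 (2.16 CPM in Epi-NMP, 2.56 in Epi-CE-T) and Kdm6b (57.3 and 58.5 CPM) overlap in these 2 libraries over all TRUE barcodes. At matched depth Kdm6b was lower in Epi-NMP than in Epi-CE-T.

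Cells of the ES-NMP library differ enough among themselves to be read side by side. All cells were thinned at random to 8000 UMIs, and cells are not replicates, so these values are descriptions of 1 library. The 937 naive marker cells were set against all other ES-NMP cells, and no member was used to define them. Of 27 measured members, 8 were higher in the naive marker cells and 6 lower, against 10.5% and 22.8% of 10729 genes. The median log2 ratio of the members was 0.07, against -0.13 over all genes.

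Of the 8 higher members, 5 encode PRC2 subunits. Jarid2 was at 84.0 CPM in naive marker cells and 23.2 in the other cells, 3.62-fold higher (3.19 to 4.11), and Mtf2 was at 220.3 CPM in naive marker cells and 81.7 in the other cells, 2.69-fold higher (2.51 to 2.89). Ezh1 was 2.21-fold (1.497 to 3.25), Eed 1.61-fold (1.49 to 1.73) and Suz12 1.52-fold higher (1.34 to 1.74). Ezh2 went the other way without reaching 1.5-fold, at 145 CPM in naive marker cells and 184 in the other cells. In PRC1, Cbx7 was at 49.1 CPM in naive marker cells and 10.6 in the other cells, 4.63-fold higher (3.87 to 5.55), Phc1 was 1.87-fold (1.68 to 2.08) and Rybp 1.52-fold higher (1.198 to 1.92). Other members of the same families were lower: Cbx2 was at 10.0 CPM in naive marker cells and 25.2 in the other cells, 2.52-fold lower (1.97 to 3.26), Phc2 was 2.33-fold lower (1.78 to 3.10), and Yaf2 was 2.69-fold lower (2.34 to 3.10). Ring1 was 1.78-fold (1.42 to 2.25) and Bmi1 1.57-fold lower (1.01 to 2.53). Kdm6b was at 9.74 CPM in naive marker cells and 26.1 in the other cells, 2.68-fold lower (2.09 to 3.48). Core and primed pluripotency genes summed to 1190.0 CPM in naive marker cells and 411 in the other cells. Of these 6 genes, 4 were higher and 2 lower in naive marker cells, where Pou5f1 alone was at 681 CPM. Immediate early genes summed to 432.5 CPM in naive marker cells and 580.1 in the other cells. The part of both gene lists in the levels of the members was not tested.

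With the naive marker cells left out, 866 ES-NMP cells had at least 2 UMIs of Hox groups 5 to 9. They were set against 1067 cells with none, at median depths of 21551.5 and 21997 UMIs before thinning. The 241 ES-NMP cells with 2 UMIs of naive genes did not count as naive marker cells. Naive genes still summed to 46.3 CPM in Hox cells and 80.0 in cells without, and their part in the member levels was not tested. Of 26 measured members, 0 were higher and 3 lower, against 3.08% and 7.22% of 9755 genes, a share near that of all genes. Cbx7 was at 4.19 CPM in Hox cells and 15.8 in cells without, 3.78-fold lower (2.51 to 5.86). Pcgf1 was 1.68-fold (1.25 to 2.30) and Bmi1 1.72-fold lower (1.06 to 2.85), on levels of 9.53 against 16.0 CPM and 3.75 against 6.44 CPM. Phc1 was 1.48-fold lower (1.27 to 1.73) and Rbbp7 1.35-fold lower (1.28 to 1.41), short of 1.5-fold. Kdm6b was at 26.8 CPM in Hox cells and 25.9 in cells without, a ratio of 1.04 (0.849 to 1.27), and Ezh2 (1.19), Eed (0.989) and Suz12 (1.001) also stayed under 1.5-fold.

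By number of Hox UMIs, Cbx7 was lower in each class than in the one before. It was at 15.8 CPM with 0 Hox UMIs, 10.7 with 1, 5.86 with 2 to 3 and 3.48 with 4 or more, in 1067, 246, 256 and 610 cells, and at 49.1 CPM in the naive marker cells. The intervals of neighbouring Hox classes overlap, but those of 0 Hox UMIs (13.3 to 18.7) and 4 or more (2.03 to 5.58) do not. Rbbp7 was at 528, 456, 440.4 and 371 CPM over the same classes and Phc1 at 53.4, 40.7, 44.4 and 32.6 CPM. Cbx2 ran upward, at 22.1, 23.9, 27.8 and 29.9 CPM, although the intervals of neighbouring classes overlap. Kdm6b was at 25.9, 24.4, 26.9 and 26.8 CPM and showed no step. The pluripotency gene Pou5f1 was at 459, 319, 268 and 159 CPM and the caudal gene Cdx2 at 151, 325, 470.2 and 603 CPM over the same classes, and their part in the Cbx7 level was not tested.

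**Figure D5:**
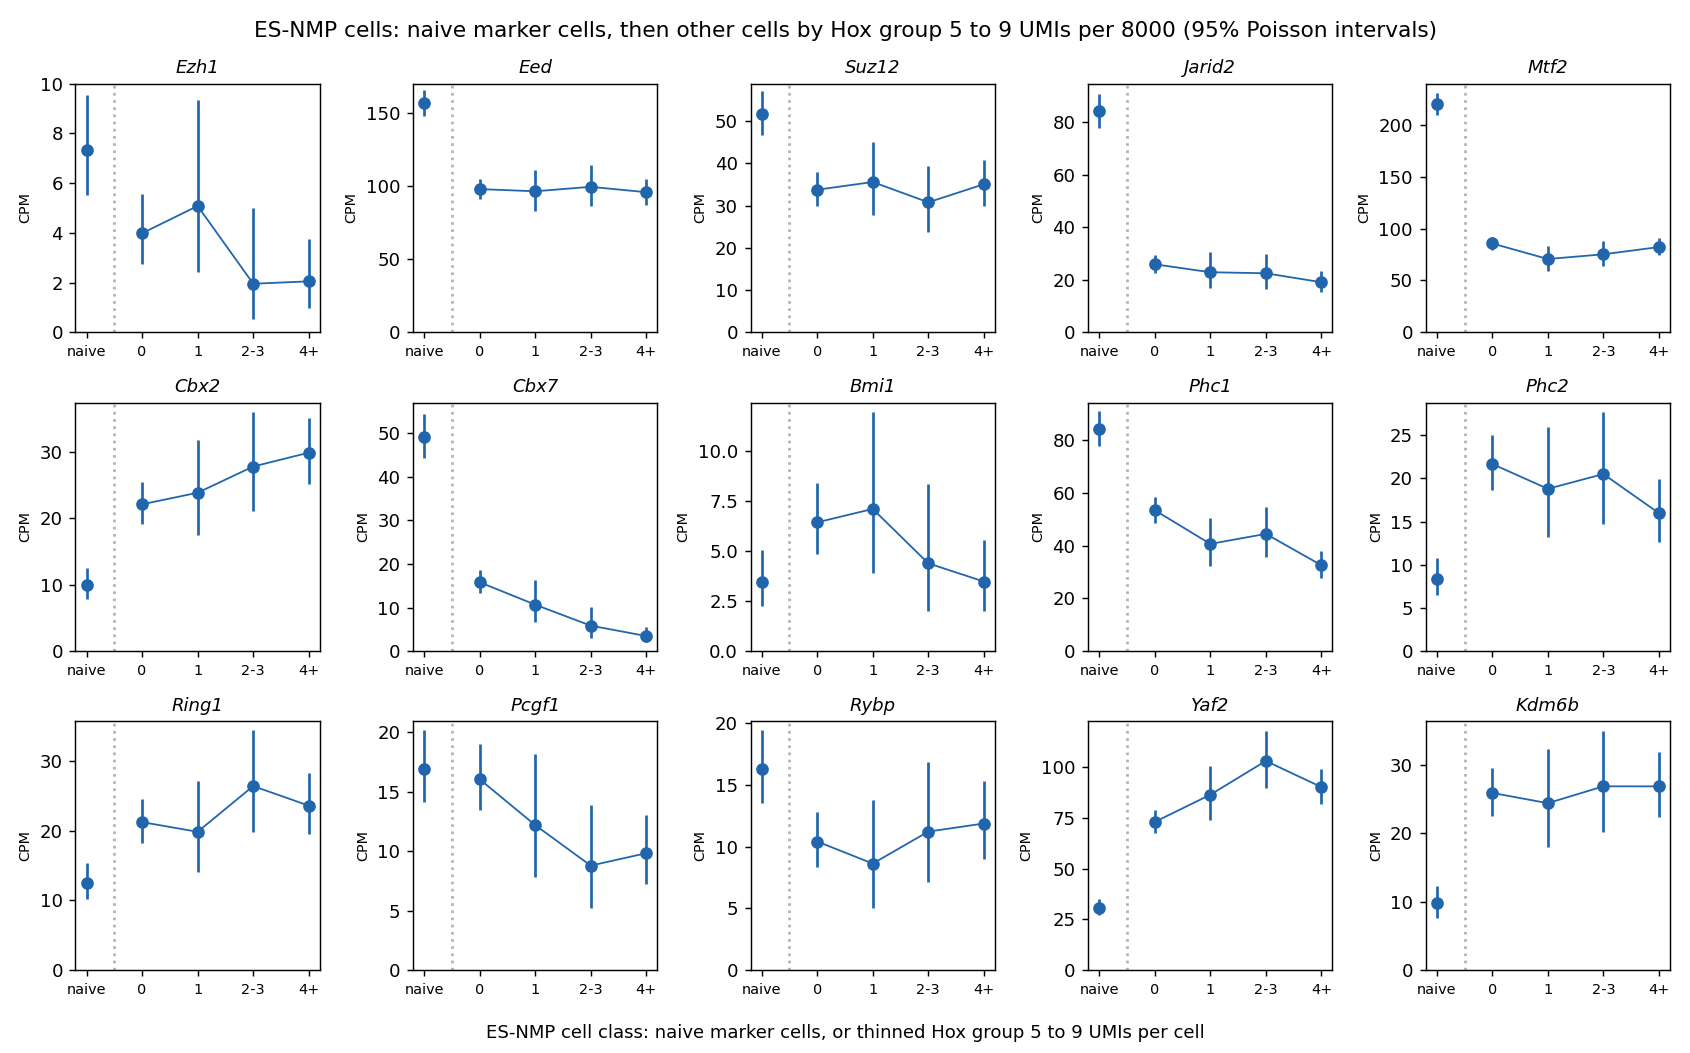
CPM from cells thinned to 8000 UMIs in ES-NMP, for the 15 members at least 1.5-fold apart in either comparison of cells. The x axis gives naive marker cells, then the other cells by UMIs of Hox groups 5 to 9 (0, 1, 2 to 3, 4 or more), and vertical lines are exact 95% Poisson intervals. Cbx7 is at 49.1 CPM in naive marker cells and 3.48 CPM in cells with 4 or more Hox UMIs, while Kdm6b is at 9.74 CPM in naive marker cells and between 24.4 and 26.9 CPM in the other classes.

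Further subunits and opposing enzymes were listed beside the members. Of 20 other PRC1 subunits, 5 were higher and 1 lower in Epi-NMP over Epi-CE (14.9% and 22.7% of all genes). The counts were 5 and 3 in Epi-NMP over ES-NMP (16.0% and 18.4%), 1 and 4 in Epi-CE over ES-NMP (21.1% and 16.2%), and 3 and 3 in Epi-CE-T over Epi-CE (18.1% and 13.1%). Scml2, a PRC1-associated gene known from the germ line, was at 1.303 CPM in Epi-NMP, 1.07 in Epi-CE-T, 6.80 in Epi-CE and 1.48 in ES-NMP, high in Epi-CE alone. Auts2, a subunit of an activating variant complex, was 2.27-fold higher in Epi-NMP than in Epi-CE and 2.96-fold higher in Epi-CE-T than in Epi-CE. In ES-NMP, Bcor, a subunit of the PCGF1 complex, was at 30.5 CPM in naive marker cells and 8.78 in the other cells, 3.48-fold higher (2.82 to 4.30).

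A list of 17 genes held Trithorax-type methyltransferases, mostly of H3K4, together with their partner subunits and associated factors. Trithorax-type complexes oppose Polycomb at Hox genes. Of this list, 6 of 16 measured were higher and 0 lower in Epi-NMP over Epi-CE (14.9% and 22.7% of all genes), and 3 of 16 were higher and 2 lower in Epi-NMP over ES-NMP (16.0% and 18.4%). In Epi-CE over ES-NMP 1 of 17 was higher and 2 lower (21.1% and 16.2%), and in Epi-CE-T over Epi-CE 0 were higher and 2 lower (18.1% and 13.1%). Of the 9 genes of the H2A deubiquitinase complex PR-DUB and its partners, 2 were higher and 1 lower in Epi-NMP over Epi-CE (14.9% and 22.7% of all genes). The lower one was the partner gene Ogt, at 82.7 CPM in Epi-NMP and 137 in Epi-CE. Ogt was 2.49-fold higher in Epi-CE than in ES-NMP (2.39 to 2.58). The counts were 2 and 0 in Epi-NMP over ES-NMP, 2 and 0 in Epi-CE over ES-NMP, and 0 and 0 in Epi-CE-T over Epi-CE, with the shares of all genes as given above. Of 15 other histone demethylase genes, 4 were higher and 3 lower in Epi-NMP over Epi-CE (14.9% and 22.7% of all genes). The counts were 3 and 1 in Epi-NMP over ES-NMP (16.0% and 18.4%), 2 and 1 in Epi-CE over ES-NMP (21.1% and 16.2%), and 3 and 1 in Epi-CE-T over Epi-CE (18.1% and 13.1%). Kdm7a was 2.33-fold higher in Epi-NMP than in ES-NMP (2.04 to 2.64). Kdm3a, an H3K9 demethylase gene, was at 47.8 CPM in naive marker cells of ES-NMP and 7.69 in the other cells, 6.21-fold higher (5.08 to 7.63).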

How the data were processed

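Single-cell RNA of 4 mouse cell populations was analysed, 1 library per population, grouped by sample title. Values are the UMI counts that the authors deposited for every gene and barcode, whole numbers that were not normalised. The submitters' processing notes name Cell Ranger 1.3.1, Seurat 2.0 and the build mm10. The sources used here gave no alignment settings, annotation or strand setting. In the file, the smallest TRUE barcode of a library held 8011 to 8247 UMIs and 2501 to 2533 genes. TRUE barcodes were summed per library (Python 3.11.15, pandas 2.3.3). Levels carry exact Poisson intervals and ratios exact conditional-binomial 95% intervals, for counting error only. The floor of 3 UMIs is 0.0419 CPM in ES-NMP and 0.135 CPM in Epi-NMP. Alternative scalings used TMM factors (edgeR 4.0.16) and DESeq2 1.42.0 size factors, with no test. No doublet caller was run and no doublet was removed. Gene positions are from GENCODE M21 (GRCm38, that is mm10) and promoter windows from RefSeq on GRCm38.p6.

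The members and all gene lists were chosen with earlier results of these data known. Every member was accounted for. Genes of the other lists were named at 200 UMIs and 2-fold or more, at most 4 per list and comparison, and not all of those are named. Markers, cell cycle and immediate early genes were read as summed levels. The interval and call scripts were tested on simulated data.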

Additional observations from a re-analysis of the deposited data

Results flagged for a closer look

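Kdm6b in the Epi-NMP barcodes marked FALSE, which enter no comparison of libraries, was at 323 CPM (2474 UMIs in 1513 barcodes), against 57.3 CPM in the TRUE barcodes of Epi-NMP. It stood out because it is a signal outside the barcodes compared and above the level of every other set of barcodes. The FALSE barcodes of the other libraries were at 84.6 CPM in Epi-CE-T (92 barcodes), 43.2 CPM in Epi-CE (80 barcodes) and 56.4 CPM in ES-NMP (172 barcodes), each above the TRUE barcodes of its own library, although in Epi-CE the intervals overlap (31.5 to 57.8 and 30.4 to 33.4 CPM). No small set of barcodes carried the signal in Epi-NMP: the most in a FALSE barcode was 9 Kdm6b UMIs, the median was 1, and the top 1% of barcodes held 4.12% of the UMIs. Depth and mitochondrial share moved with the mark, and their part in the level was not tested.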

How the results depend on the processing

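Across the alternatives for the 4 comparisons of libraries, 32 of 43 called member ratios kept their call at 1.5-fold in every setting that measured them, and 11 did not. Of all results under an alternative, 1017 stayed within the interval or 1.5 times of the value given, 116 moved and 1 changed sign. The sign change was Cbx7 in Epi-CE over ES-NMP, whose log2 ratio was 0.043 without the naive marker cells of ES-NMP. In the same setting, the members lower in Epi-CE over ES-NMP numbered 3, since Eed and Mtf2 also lost their call there (1.295-fold and 1.32-fold lower). At 2-fold in place of 1.5-fold, 1 member was higher and 1 lower in Epi-CE over ES-NMP, 3 were lower in Epi-NMP over ES-NMP, 3 were higher in Epi-NMP over Epi-CE and 2 were higher in Epi-CE-T over Epi-CE. Between ES-NMP cells with and without Hox UMIs, 2 members were higher and 6 lower with the naive marker cells kept, 5 were lower with at least 4 Hox UMIs asked of a Hox cell, and 1 was lower at 2-fold. With all barcodes, Pcgf2 (1.46) and Phc2 (1.44) in Epi-NMP over Epi-CE and Pcgf3 (1.36) in Epi-NMP over ES-NMP lost their call, and Kdm6b was 6.05-fold higher in Epi-NMP than in ES-NMP and 3.91-fold higher than in Epi-CE. In cells of 20000 to 30000 UMIs, a setting added after seeing the data, Kdm6b in Epi-NMP over Epi-CE (1.27-fold higher) and Cbx2 in Epi-CE over ES-NMP (1.47-fold lower) lost their call. Yaf2 in Epi-NMP over ES-NMP was 1.47 without naive marker cells. Phf1 in Epi-NMP over Epi-CE lost its call in 3 settings, at 1.37-fold to 1.42-fold lower. No scaling moved the median of all genes by 0.1 on the log2 scale. Depth limits Phf19 most, with 2 UMIs in Epi-NMP. The cause of the other moves was not tested. No paired analysis was possible because each group has 1 library, and for the same reason no replicate could be left out.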
